A study of Homo sapiens with 6 samples.

Results

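The genes described here are 45 human genes of G2 and mitosis, with their regulator FOXM1, chosen as a list of symbols and not by their values, and all 45 were found among the 19934 gene symbols of the count files. They were measured by RNA-seq in 6 libraries of NCI-H1299, an established line labelled as lung adenocarcinoma and grown in DMEM with serum. Cells were transfected over 4 days using Lipofectamine 3000 with a control siRNA (the si-Ctr group), with siRNA to ZBTB11 (the si-ZBTB11 group) or with siRNA to SET (the si-SET group), with 2 biological replicates each, and the labels name no other allele or agent. The study used separate oligos to ZBTB11, and it writes of siRNAs to SET in the plural. The labels do not say which oligo a library received. The spread between the libraries of either knockdown thus cannot be told apart from a difference between oligos. ZBTB11 is a BTB and zinc finger protein that binds DNA, SET is a histone chaperone and inhibitor of the phosphatase PP2A, and the knockdowns ask which genes change when either protein is depleted. The cells were a growing, unsorted culture of a single line, so less mitotic RNA per cell and fewer cells in mitosis cannot be told apart in these values. By other assays in this line, the paper reports no obvious change of proliferation or of the cell cycle upon either knockdown.

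Entry into mitosis is driven by CDK1 bound to B-type cyclins, and the genes that carry it out are transcribed in a wave that peaks late in the cell cycle. In resting and early-cycle cells the DREAM complex, which holds the MuvB core with E2F4 and the retinoblastoma-like proteins RBL1 and RBL2, keeps these promoters silent. Later MYBL2 and FOXM1 join the MuvB core at the same promoters and activate them. The core reads a short element close to the start site, the cell cycle genes homology region (CHR), and NF-Y binds CCAAT boxes just upstream of it. Many of the resulting proteins are destroyed at the exit from mitosis by the anaphase-promoting complex, and their mRNA levels serve widely as a measure of proliferation in tumours.

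The libraries held 16653115 to 17694522 counts, so that 3 counts corresponded to 0.17 to 0.18 CPM, the unit of counts scaled to the library's total, which covers counting error only. The members took 0.541% to 0.611% of all counts. ZBTB11 had 925 and 1075 counts in si-Ctr and 548 and 544 in si-ZBTB11, or 55.0% of the control level in normalized CPM. SET had 11656 and 11007 counts in si-Ctr and 1032 and 1031 in si-SET, which left 8.97%. ZBTB11 was also lower in si-SET, at 846 and 708 counts and 76.2% of control (edgeR adjusted p = 2.12e-05), whereas SET stood at 101% of control in si-ZBTB11. Of the markers, KRT8, KRT18 and VIM were present at 6083 counts or more, but the defining epithelial genes EPCAM and CDH1 reached at most 12 counts and the lung genes NAPSA, SFTPB and SFTPC at most 10. NKX2-1, the lung lineage factor, had 37 to 61 counts. The 11 markers of leukocytes, endothelium and fibroblasts stayed at or under 101 counts in every library.

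ZBTB11 knockdown moved few mitosis genes, and it moved them in both directions. The kinesin-like kinetochore motor CENPE, the ubiquitin-conjugating enzyme UBE2C, the NDC80 complex subunit SPC25 and the chromokinesin KIF4A were higher. The anaphase activator CDC20, the kinases AURKA and PLK1, separase (ESPL1) and the cytokinesis factor ECT2 were lower. The changes spanned log2 fold changes from −0.20 to 0.32 among these 9 genes. FOXM1 did not pass the test, with 178 and 177 CPM in si-Ctr and 184 and 163 CPM in si-ZBTB11. A gene counted as called when its p-value from the edgeR quasi-likelihood test, Benjamini-Hochberg adjusted over all 13534 genes tested, was below 0.05, and SE is the standard error of a log2 fold change. All 45 members passed the filter on low counts in each comparison, 4 were called higher and 5 lower, and the other 36 were not called. Of all genes tested, 9.94% were called higher and 10.5% lower, against 8.89% and 11.1% of the members, so the shares among members were near the background. Genes with a mean level between 43.8 and 202 CPM, the range from the 10th to the 90th percentile of the members, were called higher in 13.6% and lower in 12.9% of cases. The median log2 fold change was 0.00 for the members and 0.00 for all genes. The criteria of the study's methods were a log2 fold change beyond 1 in size at an unadjusted p of less than 0.05. No member passed them, 0 of 45, against 1.57% of all genes. An unadjusted p-value alone was under 0.05 for 13 members in edgeR's test, for which no share over all genes is given. Fewer genes in all were called with any library left out or in DESeq2's Wald test. In that test, 5.19% of all genes were called higher and 5.64% lower. Without si-Ctr replicate 2 only 1 member was called higher, without si-ZBTB11 replicate 1 the number was 2, and without si-ZBTB11 replicate 2 it was 9. The number called lower was 2 without si-Ctr replicate 1 and 2 without si-ZBTB11 replicate 2, and DESeq2's Wald test called 2 higher and 3 lower, without ECT2, KIF4A, PLK1 and SPC25.

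SET knockdown moved more of them, and nearly all called members were higher, a rise also found among other cell cycle genes listed below. HMMR, a spindle protein that also binds hyaluronan, rose most, followed by CENPE and SPC25 of the kinetochore and by INCENP and BIRC5 of the chromosomal passenger complex. Further members that rose were CDK1, FOXM1, UBE2C, BUB1B, PTTG1, NDC80, TPX2, MKI67 and the kinesins KIF2C, KIF4A, KIF11, KIF20A and KIF20B. Cyclin A2 (CCNA2), the cyclin of S phase and early mitosis, was the member called lower. The increases were small, with log2 fold changes from 0.12 to 0.44. In all, 18 members (40%) were called higher and 1 (2.22%) lower, against 13.1% and 13.9% of the 13599 genes tested, and 15.8% and 19.4% of the genes at the members' levels. The median log2 fold change of the members was 0.09, against 0.00 over all genes, and 32 members were above 0 and 13 below. None of the 45 met the study's criteria, against 2.15% of all genes. In edgeR's test, 22 members had an unadjusted p-value under 0.05, for which no share over all genes is given. The number called higher was 6 without si-Ctr replicate 2 and 11 without si-SET replicate 1, and it was 16 without si-Ctr replicate 1 and 17 without si-SET replicate 2. The median of the members was 0.05 without si-SET replicate 1 and 0.14 without si-SET replicate 2. The number of all genes called fell too with each library left out, and in DESeq2's test. CCNA2 was not called without si-Ctr replicate 1 or si-SET replicate 2, and DESeq2's Wald test called 9 members higher and 0 lower, without BUB1B, CCNA2, CENPE, FOXM1, KIF11, KIF20B, KIF2C, PTTG1, SPC25 and TPX2.

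The direct comparison of both knockdowns tests whether a gene differed between them without going through the shared si-Ctr libraries. HMMR, CDK1, ECT2, CDC20, FOXM1, MKI67, TPX2, KIF11, KIF20A, KIF20B, AURKA, ESPL1, NUF2 and CENPA were lower in si-ZBTB11 than in si-SET. CCNA2 and the kinetochore subunit SPC24 were higher. These were 14 members (31.1%) and 2 members (4.44%), against 8.58% lower and 9.61% higher of the 13549 genes tested, and 10.5% lower and 15% higher at the members' levels. The median log2 difference was −0.08 over the members, 38 of 45 were below 0, and the median over all genes was 0.00. No member met the study's criteria here, against 1.36% of all genes. An unadjusted p-value under 0.05 in edgeR's test was found for 21 members, again with no share over all genes given. The number called lower was 5 without si-SET replicate 1 and 3 without si-ZBTB11 replicate 2, and the number called higher was 1 without si-SET replicate 1, 0 without si-SET replicate 2 and 0 without si-ZBTB11 replicate 1. DESeq2's Wald test called 5 lower and 0 higher, namely HMMR, CDK1, ECT2, CDC20 and MKI67. The median of the members was −0.15 without si-ZBTB11 replicate 1, −0.05 without si-ZBTB11 replicate 2 and −0.04 without si-SET replicate 1. Here too, fewer genes in all were called with each library left out and in DESeq2's test.

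**Figure D1:**
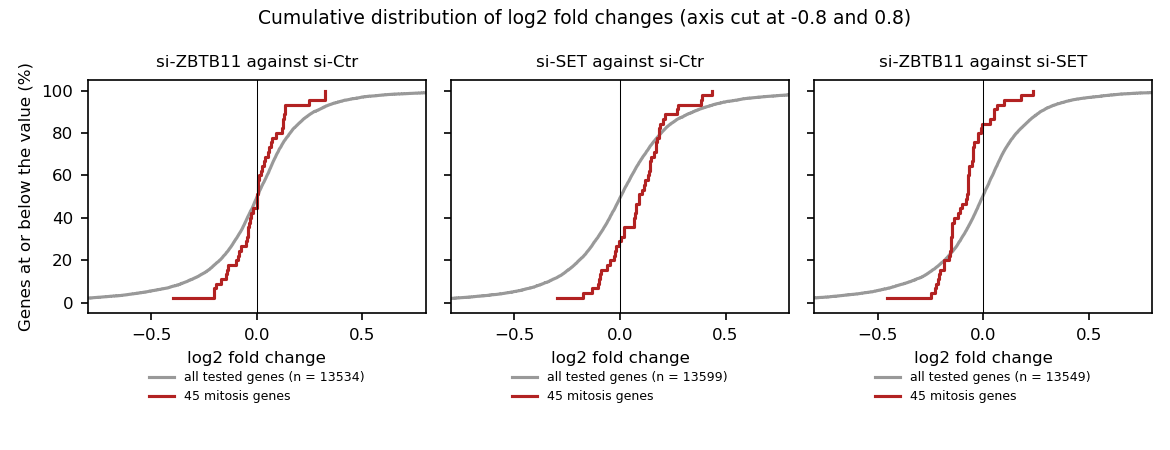
Cumulative share of genes (vertical axis, %) at or below each log2 fold change (horizontal axis) for the 45 mitosis genes (red) and for all genes tested (grey) in the 3 comparisons. The red curve follows the grey one around 0 for si-ZBTB11 against si-Ctr, with medians of 0.00, lies to its right for si-SET against si-Ctr, with a median of 0.09, and to its left for si-ZBTB11 against si-SET, with a median of −0.08.

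The libraries themselves were uneven across these genes. Replicate 1 stood above replicate 2 for 40 of 45 members in si-Ctr, 34 in si-SET and 42 in si-ZBTB11, while 48.8%, 50.7% and 50.1% of all tested genes did so. The median member lay 0.05 above the si-Ctr mean on the log2 scale in si-Ctr replicate 1 and 0.05 below it in replicate 2. It lay 0.14 and 0.05 above that mean in the si-SET replicates, and 0.05 above and 0.04 below it in the si-ZBTB11 replicates. The second si-SET library and the first si-Ctr library were thus alike in their median member, and the part of this unevenness in the calls was not tested. In the main fits, each p-value sets the difference between 2 groups against an estimate of the spread between replicates. That estimate is moderated across all genes tested, so it is not the gene's own spread alone. An exact permutation test of 2 against 2 cannot go below p = 0.333.

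**Figure D2:**
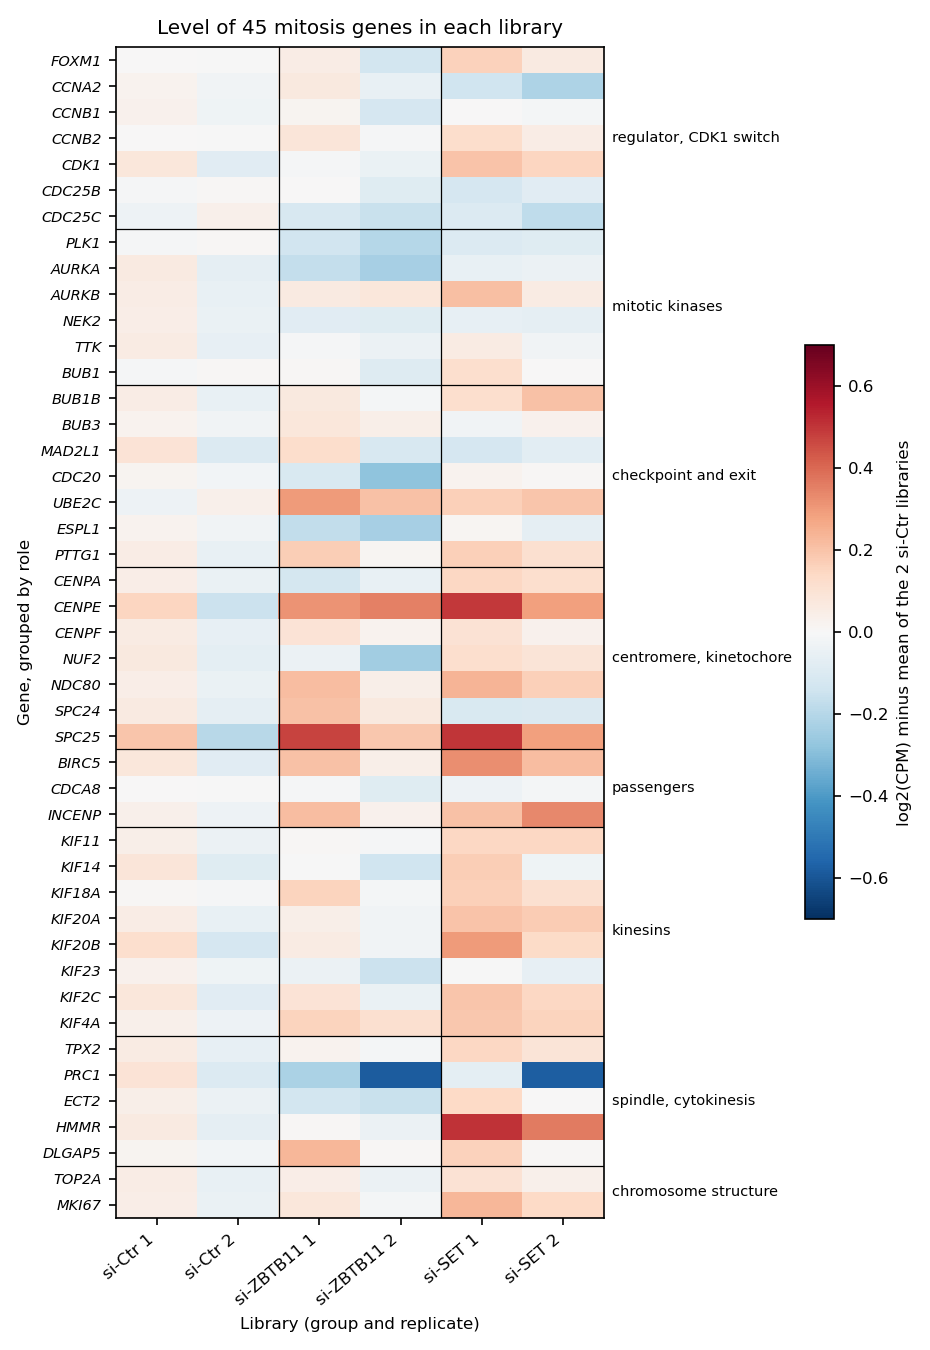
Level of each of the 45 genes (rows, grouped by role) in each of the 6 libraries (columns), as log2 CPM minus the mean of both si-Ctr libraries (colour scale). The si-SET columns are redder than the others, replicate 1 more than replicate 2, with medians of 0.14 and 0.05, and most rows of the si-ZBTB11 columns lie close to white.

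The promoters of these genes shared words of the CHR and of CCAAT. The members were chosen as genes of G2 and mitosis, the class described above as regulated through these elements. Their high shares are therefore not a finding independent of the choice. RefSeq promoter windows on GRCh38.p14, from 250 bases before to 50 after the start, were found for 38 of 45 members, with 48 windows. Those of FOXM1, BIRC5, TPX2, UBE2C, AURKA, TTK and BUB3 were not in the table. The CHR word TTTGAA, searched on both strands, occurred in the windows of 27 of 38 members (71.1%), against 13.7% of all tested genes with a window. Per window, the shares were 62.5% for members and 15.2% for all 35116 promoters of the table. The word CCAAT occurred in 33 of 38 members (86.8%) against 42.9% of tested genes, and in 79.2% of member windows against 34.6% of all. Both words stood together in 24 members (63.2%) against 5.62% of tested genes. TTCGAA, a variant of the CHR, was found in 3 members, BUB1, CDC25B and NDC80, or 7.89% against 2.4%. Forms of the CHR other than TTTGAA and TTCGAA were not searched, so a member without the word may still hold the element. The words CCGGAAG and CAGGAAG were searched too, as the study's text gives them as the motif bound by ZBTB11. They were found in 14 members (36.8%) against 34.2% of tested genes, and in 33.3% of member windows against 21.8% of all. The matches are descriptions of letters, and a word ending in TTTGAA can share its last bases with ATTGG, the reverse of CCAAT.

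The CHR matches crowded near the start. In the 50 bases just before it, 35.4% of member windows held the word, against 2.56% of all windows, and in the 50 bases after it 18.8% did, against 2.17%. The median position of the 42 matches was −28.0 bases from the start. CCAAT peaked farther out, between 100 and 50 bases before the start, with 56.2% of member windows against 12.9%. Members with and without the CHR word were found among those that moved in either knockdown. Of the 27 with it, 10 were called higher and 0 lower in si-SET, and 2 higher and 4 lower in si-ZBTB11. Of the 11 with a window but without it, 4 were higher and 1 lower in si-SET, and 1 higher and 0 lower in si-ZBTB11. The members' median log2 fold changes in si-SET were 0.09 and 0.06 in these sets.

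**Figure D3:**
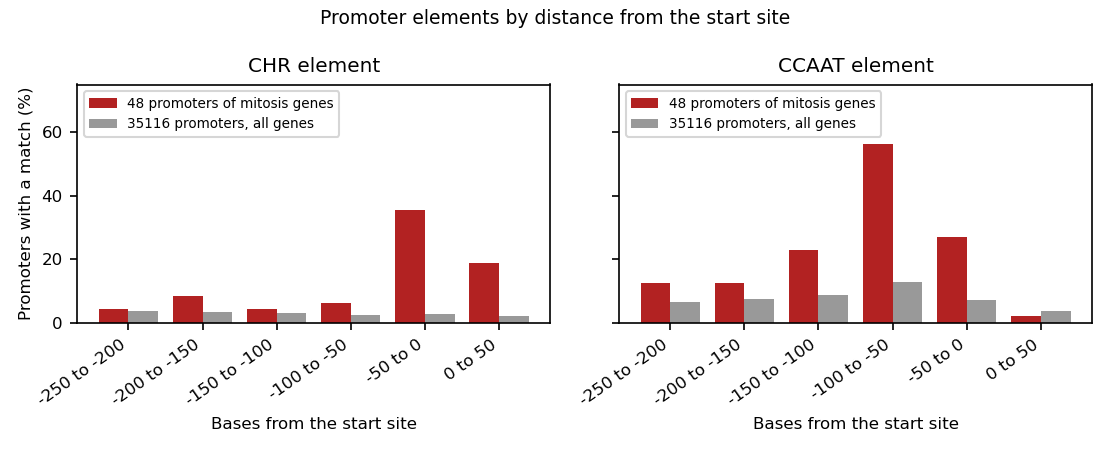
Share of promoter windows (vertical axis, %) that hold the CHR word (left) or CCAAT (right) in each 50-base bin by distance from the start site (horizontal axis, bases), for 48 windows of mitosis genes (red) and 35116 windows of all genes (grey). The tallest red bars are 35.4% for the CHR in the bin just before the start and 56.2% for CCAAT in the bin from 100 to 50 bases before it.

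The 100 bases before the start are shown for 6 members to let the arrangement be read, with CHR and CCAAT words of either strand in capitals and all else in lower case (GRCh38.p14, RefSeq windows). CDC20 and ESPL1 fell in si-ZBTB11, KIF4A rose in both knockdowns, and MKI67 and KIF11 rose in si-SET. CCNA2, which fell in si-SET, has neither TTTGAA nor TTCGAA in this stretch, and other forms of the CHR were not searched.
CDC20 (chr1:43358881-43358980, plus strand): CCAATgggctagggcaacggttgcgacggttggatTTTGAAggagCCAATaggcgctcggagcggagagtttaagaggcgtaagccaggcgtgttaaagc
ESPL1 (chr12:53268199-53268298, plus strand): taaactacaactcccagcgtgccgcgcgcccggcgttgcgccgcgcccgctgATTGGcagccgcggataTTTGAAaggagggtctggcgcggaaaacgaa
KIF4A (chrX:70290004-70290103, plus strand): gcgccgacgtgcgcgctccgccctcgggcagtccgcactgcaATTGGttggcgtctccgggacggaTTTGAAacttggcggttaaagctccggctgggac
MKI67 (chr10:128126424-128126523, minus strand): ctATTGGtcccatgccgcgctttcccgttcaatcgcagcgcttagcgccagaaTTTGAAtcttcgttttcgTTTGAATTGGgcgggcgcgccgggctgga
KIF11 (chr10:92593030-92593129, plus strand): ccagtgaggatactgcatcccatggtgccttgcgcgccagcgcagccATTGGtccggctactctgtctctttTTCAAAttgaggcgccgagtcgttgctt
CCNA2 (chr4:121823884-121823983, minus strand): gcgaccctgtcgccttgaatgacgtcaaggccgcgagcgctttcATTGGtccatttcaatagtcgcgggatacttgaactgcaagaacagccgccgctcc

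For HMMR, CDK1, PLK1 and INCENP, whose 100 bases before this start lie wholly (HMMR, CDK1 and PLK1) or partly (INCENP) in annotated exons, 30 bases around a CHR match are given, with the CHR word in capitals. In HMMR, the member with the largest change, 2 copies stand head to tail.
HMMR (chr5:163460595-163460624, plus strand): gtggggagaTTTGAATTTGAAaccggtagg
CDK1 (chr10:60778453-60778482, plus strand): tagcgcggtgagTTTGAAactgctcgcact
PLK1 (chr16:23678848-23678877, plus strand): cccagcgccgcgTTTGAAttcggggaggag
INCENP (chr11:62123989-62124018, plus strand): tgagccttcagtTTTGAAaatcatagtttt

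By level per length, the members spanned a wide range. In si-Ctr, normalized CPM per kilobase of merged exons was 122 for TPX2, which activates AURKA on the spindle, 109 for CCNB1, 90.3 for UBE2C, 90.2 for CDC20 and 57.8 for PTTG1. The median member stood at 25.01 CPM per kilobase. The lowest was PRC1, at 0.602, a spindle midzone bundling protein (chr15:90966040-90995629, hg38, minus strand). PRC1 had 37 to 62 counts in a library, and 57.6% of its exon bases are shared with another protein-coding gene on the same strand, ENSG00000284946, so its value is uncertain and may hold only part of its reads. FOXM1 shares 15.9% of its exon bases with ITFG2 on the opposite strand and BUB1B shares 10.2% with PAK6 and the read-through BUB1B-PAK6, and the strand setting of the counting is not given in the sources used here.

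FOXM1, the forkhead factor that activates the late wave of cell cycle genes, lies on chromosome 12 of hg38 (chr12:2857680-2877174, minus strand). Its normalized level was 178 and 177 CPM in si-Ctr, 184 and 163 CPM in si-ZBTB11, and 199 and 186 CPM in si-SET. Both si-SET libraries were above both controls, and the si-ZBTB11 libraries lay on either side of them. In si-SET the log2 fold change was 0.12 (SE 0.04, edgeR adjusted p = 0.0446), from a mean of 178 ± 0.853 (SD, n = 2) to 192 ± 9.37 CPM (SD, n = 2). In si-ZBTB11 it was −0.04 (SE 0.05, adjusted p = 0.638), and directly against si-SET it was −0.15 (SE 0.05, adjusted p = 0.038). By RT-qPCR in the same cell line, the paper reports FOXM1 as lower upon ZBTB11 knockdown, and the reason for this difference was not tested. The si-SET call was lost without si-Ctr replicate 1 (0.12), si-Ctr replicate 2 (0.11) or si-SET replicate 1 (0.06) and in 4 of the 8 alternatives. The direct call was lost without si-SET replicate 1 (−0.10) or si-ZBTB11 replicate 2 (−0.07), and without the latter library the si-ZBTB11 value against si-Ctr turned to 0.05.

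**Figure D4:**
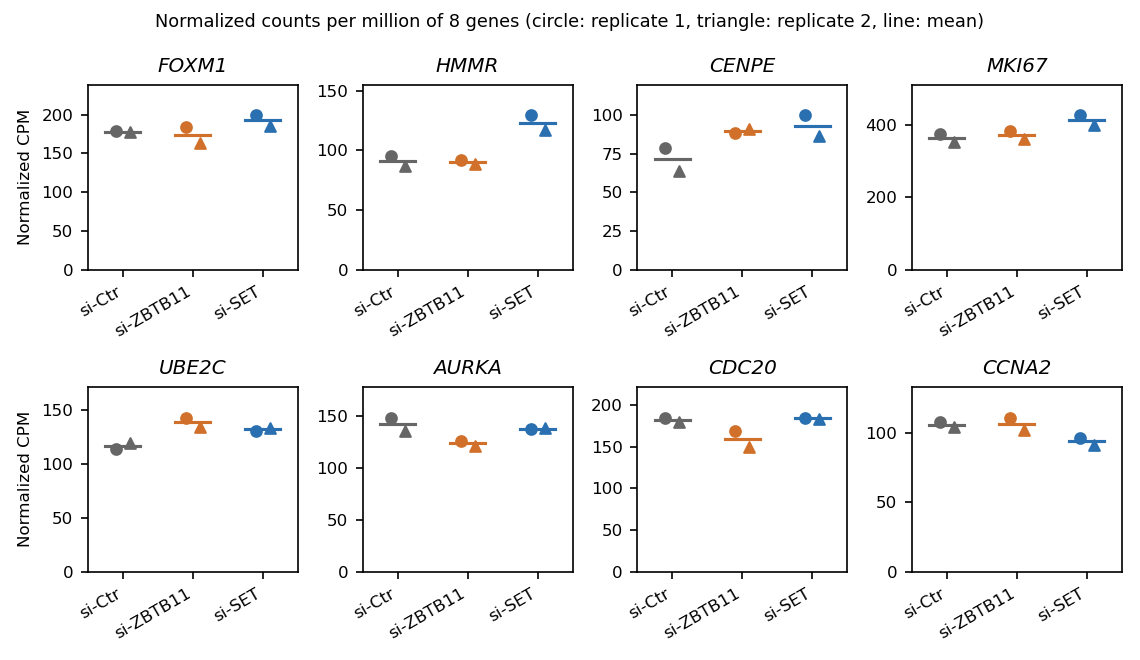
Normalized CPM (vertical axes, from 0) of FOXM1 and 7 members that were called in at least 1 comparison, by group (si-Ctr grey, si-ZBTB11 orange, si-SET blue), with replicate 1 as a circle, replicate 2 as a triangle and a line at the mean of both. HMMR stands at 129 and 117 CPM in si-SET and between 87.3 and 95.1 CPM in the other 4 libraries, and UBE2C is above both controls in both knockdowns.

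In the CDK1 switch, CDK1, the kinase that starts mitosis, rose in si-SET. It had 172 and 155 CPM in si-Ctr, 162 and 158 CPM in si-ZBTB11, and 187 and 181 CPM in si-SET. The si-SET libraries were the highest of all, and the si-ZBTB11 libraries lay between the controls. The log2 fold change in si-SET was 0.18 (SE 0.05, adjusted p = 0.002), and si-ZBTB11 against si-SET differed by −0.21 (SE 0.05, adjusted p = 0.00175). CCNA2, the cyclin that precedes the B-type cyclins, went the other way, with 107 and 104 CPM in si-Ctr, 111 and 102 CPM in si-ZBTB11, and 96.0 and 91.1 CPM in si-SET. The lowest libraries were both of si-SET, a log2 fold change of −0.17 (SE 0.05, adjusted p = 0.0102), and the difference between knockdowns was 0.18 (SE 0.06, adjusted p = 0.0246). CCNB1 and CCNB2, the mitotic cyclins, and CDC25B and CDC25C, the phosphatases that release CDK1, were not called in any comparison, with log2 fold changes from −0.14 to 0.09 against si-Ctr. CCNB1 in si-SET was among the members nearest to no change, at 272 and 259.8 CPM in si-Ctr and 266 and 263 CPM in si-SET. Between the knockdowns, CDC25C lay nearest to no difference, at 27.2 and 26.3 CPM in si-ZBTB11 and 27.5 and 25.9 CPM in si-SET. CDK1 was not called in si-SET without si-Ctr replicate 2 (0.10). The CCNA2 call was lost without si-Ctr replicate 1 (−0.15) or si-SET replicate 2 (−0.14), and directly between knockdowns without si-SET replicate 2 (0.15) or si-ZBTB11 replicate 1 (0.12).

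Among the mitotic kinases, AURKA and PLK1 fell in si-ZBTB11. AURKA, which matures centrosomes and builds the spindle poles, had 149 and 136 CPM in si-Ctr, 127 and 121 CPM in si-ZBTB11, and 137 and 139 CPM in si-SET. The si-ZBTB11 libraries were below the other 4. The log2 fold change was −0.20 (SE 0.05, adjusted p = 0.00116), and against si-SET the difference was −0.16 (SE 0.05, adjusted p = 0.0241). PLK1, a kinase with roles from mitotic entry to cytokinesis, had 128 and 129 CPM in si-Ctr, 117 and 112 CPM in si-ZBTB11, and 120.5 and 121 CPM in si-SET. Both knockdowns lay below both controls, and the si-ZBTB11 change of −0.17 (SE 0.05, adjusted p = 0.00912) passed the test, while the si-SET value was −0.09 (adjusted p = 0.187) and the direct difference −0.08 (adjusted p = 0.302). AURKB, the catalytic subunit of the passenger complex, NEK2 of the centrosome, and the checkpoint kinases TTK and BUB1 were not called, with log2 fold changes from −0.09 to 0.14. The AURKA call was lost without si-Ctr replicate 1 (−0.14) and that of PLK1 without si-Ctr replicate 2 (−0.16) or si-ZBTB11 replicate 2 (−0.14). The direct AURKA call was lost without either si-SET library (−0.16 and −0.15) or si-ZBTB11 replicate 2 (−0.13).

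The spindle checkpoint holds the anaphase-promoting complex inactive until every chromosome is attached, and UBE2C, CDC20 and ESPL1, which act at or after its release, moved in si-ZBTB11. UBE2C, the enzyme that supplies ubiquitin to the complex, had 113 and 119 CPM in si-Ctr, 143 and 134 CPM in si-ZBTB11, and 130.4 and 133 CPM in si-SET. All 4 knockdown libraries were above both controls. The log2 fold change was 0.25 in si-ZBTB11 (SE 0.05, adjusted p = 6.81e-05) and 0.18 in si-SET (SE 0.05, adjusted p = 0.00289), and the direct difference of 0.06 was not called (adjusted p = 0.436). The si-ZBTB11 change of UBE2C was called in all 8 alternatives and with each library left out, from 0.20 to 0.29. CDC20, the co-activator that starts anaphase, had 184 and 179 CPM in si-Ctr, 168 and 149 CPM in si-ZBTB11, and 185 and 183 CPM in si-SET. It fell in si-ZBTB11, where replicate 2 was the lower library, by a log2 fold change of −0.19 (SE 0.05, adjusted p = 0.00102), and it was −0.22 (SE 0.05, adjusted p = 0.003) against si-SET. ESPL1, the separase that cuts cohesin, had 118 and 114 CPM in si-Ctr, 103 and 98.6 CPM in si-ZBTB11, and 117 and 111 CPM in si-SET. The si-ZBTB11 libraries were the lowest, with −0.20 (SE 0.05, adjusted p = 0.00202) against si-Ctr and −0.18 (SE 0.05, adjusted p = 0.0149) against si-SET.

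PTTG1, the securin that keeps separase inactive, and BUB1B, a subunit of the checkpoint complex, rose in si-SET. Their log2 fold changes were 0.14 for PTTG1 (SE 0.05, adjusted p = 0.0296) and 0.16 for BUB1B (SE 0.06, adjusted p = 0.0248). In si-ZBTB11 they stood at 0.09 and 0.02 and were not called. BUB3 and MAD2L1, also of the checkpoint, were not called in any comparison. BUB3 was the member nearest to no change in si-SET, with 207 and 199 CPM in si-Ctr, 214 and 209 CPM in si-ZBTB11, and 199.6 and 207 CPM in si-SET, so that the si-SET and control levels overlapped, and MAD2L1 differed by 0.00 in si-ZBTB11 and −0.10 in si-SET, with both groups overlapping the controls. Leaving out a library ended several of these calls in si-ZBTB11, for CDC20 without si-ZBTB11 replicate 2 (−0.11) and for ESPL1 without si-Ctr replicate 1 (−0.18). In si-SET it did so for UBE2C without si-Ctr replicate 1 (0.15), for PTTG1 without si-Ctr replicate 2 (0.09) or si-SET replicate 1 (0.11), and for BUB1B without si-Ctr replicate 2 (0.11) or si-SET replicate 2 (0.12). In the direct comparison, CDC20 was lost without si-ZBTB11 replicate 2 (−0.13), and ESPL1 without that library (−0.15) or si-SET replicate 1 (−0.15).

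At the kinetochore, CENPE rose in both knockdowns. CENPE, the motor that moves chromosomes to the spindle equator, had 78.9 and 63.9 CPM in si-Ctr, 88.2 and 90.8 CPM in si-ZBTB11, and 99.9 and 86.7 CPM in si-SET. All 4 knockdown libraries were above both controls, which differed widely from each other. The log2 fold change was 0.32 in si-ZBTB11 (SE 0.06, adjusted p = 2.26e-05) and 0.39 in si-SET (SE 0.06, adjusted p = 5.29e-07). The si-SET call of CENPE was lost in DESeq2's Wald test (adjusted p = 0.142). SPC25, which anchors the NDC80 complex to the kinetochore, had 23.7 and 18.1 CPM in si-Ctr, 28.8 and 23.6 CPM in si-ZBTB11, and 29.3 and 25.3 CPM in si-SET. The second si-ZBTB11 library fell just under the first control, and the si-SET libraries were above both controls. SPC25 changed by 0.32 in si-ZBTB11 (SE 0.11, adjusted p = 0.0186) and by 0.39 in si-SET (SE 0.10, adjusted p = 0.00246). NDC80, the microtubule-binding subunit, had 109.7 and 103 CPM in si-Ctr, 123 and 109 CPM in si-ZBTB11, and 125 and 119 CPM in si-SET. It rose in si-SET by a log2 fold change of 0.20 (SE 0.05, adjusted p = 0.00132), and its 0.13 in si-ZBTB11 missed the threshold (adjusted p = 0.0812) but passed it with the replicate number as a block in the fit.

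CENPA, SPC24 and NUF2 were called between the knockdowns and not against si-Ctr. CENPA, the centromeric histone H3 variant, had 45.3 and 42.5 CPM in si-Ctr, 40.3 and 42.4 CPM in si-ZBTB11, and 48.6 and 47.6 CPM in si-SET. SPC24, the partner of SPC25, had 45.9 and 41.9 CPM in si-Ctr, 50.5 and 46.1 CPM in si-ZBTB11, and 40.7 and 40.8 CPM in si-SET. For these 2 members the knockdowns lay on opposite sides of both controls, CENPA lower in si-ZBTB11 and higher in si-SET, and SPC24 the reverse. The margins in si-ZBTB11 were narrow, 42.4 against 42.5 CPM for CENPA and 46.1 against 45.9 CPM for SPC24. Of all genes tested, 29.3% had both si-ZBTB11 libraries above both controls and 27.7% below, and 30.5% and 31% in si-SET. No share over all genes is given for opposite sides. Directly, CENPA differed by −0.23 (SE 0.07, adjusted p = 0.0286) and SPC24 by 0.24 (SE 0.07, adjusted p = 0.0234). NUF2, the partner of NDC80, had 45.7 and 41.6 CPM in si-Ctr, 42.4 and 36.8 CPM in si-ZBTB11, and 47.4 and 46.3 CPM in si-SET, a direct difference of −0.25 (SE 0.08, adjusted p = 0.0242) with the highest libraries in si-SET. CENPF, a large outer kinetochore protein, was not called in any comparison, at 0.05 and 0.06 against si-Ctr and −0.01 directly (adjusted p = 0.907). Against si-Ctr, the si-ZBTB11 calls were lost for CENPE without si-Ctr replicate 2 (0.18) and for SPC25 without si-Ctr replicate 2 (0.14) or si-ZBTB11 replicate 1 (0.17), and the si-SET calls for SPC25 without si-Ctr replicate 2 (0.21) or si-SET replicate 1 (0.27) and for NDC80 without si-Ctr replicate 2 (0.16). The direct CENPA call was lost whichever library was left out (−0.26 to −0.19), that of SPC24 without si-SET replicate 1 (0.24), si-SET replicate 2 (0.24) or si-ZBTB11 replicate 1 (0.17), and that of NUF2 without si-SET replicate 1 (−0.23) or si-ZBTB11 replicate 2 (−0.15).

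The chromosomal passenger complex brings AURKB to centromeres and later to the midzone, and its subunits BIRC5 and INCENP rose in si-SET. BIRC5, known as survivin, had 98.2 and 88.0 CPM in si-Ctr, 107 and 95.5 CPM in si-ZBTB11, and 116 and 108 CPM in si-SET. INCENP, the scaffold of the complex, had 72.5 and 68.9 CPM in si-Ctr, 82.2 and 72.3 CPM in si-ZBTB11, and 81.5 and 89.3 CPM in si-SET. In both genes the si-SET libraries were above both controls, and the second si-ZBTB11 library was not. The log2 fold change in si-SET was 0.27 for BIRC5 (SE 0.06, adjusted p = 4.81e-05) and 0.27 for INCENP (SE 0.06, adjusted p = 2.08e-04). Both were called in all 8 alternatives and with each library left out, between 0.19 and 0.35 for BIRC5 and between 0.20 and 0.33 for INCENP. In si-ZBTB11 the values were 0.12 for each and not called, and the direct differences were −0.15 for both, with adjusted p = 0.0662 for BIRC5 and 0.112 for INCENP. With the replicate block, both direct differences passed the threshold. CDCA8, or borealin, was not called, at −0.05 and −0.02 against si-Ctr.

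Of the 8 kinesins, 5 (62.5%) rose in si-SET and none fell, against 13.1% higher and 13.9% lower of all genes tested. KIF20A, which works in cytokinesis, had 127 and 118 CPM in si-Ctr, 126 and 120.3 CPM in si-ZBTB11, and 140.4 and 138 CPM in si-SET. KIF20B, its relative, had 86.4 and 73.1 CPM in si-Ctr, 82.6 and 78.2 CPM in si-ZBTB11, and 97.6 and 87.1 CPM in si-SET. In both, the si-SET libraries were the highest and the si-ZBTB11 libraries lay between the controls. KIF20A rose by 0.19 in si-SET (SE 0.05, adjusted p = 0.00174) and differed by −0.19 directly (SE 0.05, adjusted p = 0.00831). KIF20B rose by 0.21 (SE 0.06, adjusted p = 0.00439) and differed by −0.21 (SE 0.06, adjusted p = 0.0162). KIF4A, a chromosome-bound motor that organizes the midzone, had 142 and 135 CPM in si-Ctr, 155 and 149.6 CPM in si-ZBTB11, and 158 and 154 CPM in si-SET. It was above both controls in all 4 knockdown libraries, with 0.13 in si-ZBTB11 (SE 0.05, adjusted p = 0.0413) and 0.17 in si-SET (SE 0.05, adjusted p = 0.00305). The si-ZBTB11 call of KIF4A was lost in DESeq2's Wald test (adjusted p = 0.202), with library size as the scaling (0.0906) and with all 6 libraries in one fit (0.0527).

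KIF11, the motor that pushes spindle poles apart, had 140.1 and 132 CPM in si-Ctr, 137 and 135 CPM in si-ZBTB11, and 150.3 and 150.3 CPM in si-SET. KIF2C, a microtubule depolymerase, had 117 and 105 CPM in si-Ctr, 118 and 107 CPM in si-ZBTB11, and 127 and 123 CPM in si-SET. For both motors the si-SET libraries stood highest. They rose in si-SET by 0.15 (KIF11, adjusted p = 0.015) and 0.17 (KIF2C, adjusted p = 0.00909), and directly differed by −0.15 each, which was called for KIF11 (adjusted p = 0.0303) and not for KIF2C (adjusted p = 0.0531, called with the replicate block). KIF14 and KIF23, motors of cytokinesis, and KIF18A, which damps chromosome movements, were not called, with log2 fold changes from −0.10 to 0.14 against si-Ctr. The kinesin calls in si-SET depended on si-Ctr replicate 2, without which KIF20A (0.14), KIF20B (0.10), KIF4A (0.14), KIF11 (0.10) and KIF2C (0.09) were not called. KIF20B (0.13), KIF11 (0.14) and KIF2C (0.14) were also lost without si-SET replicate 1, KIF11 without si-SET replicate 2 (0.14), and KIF4A in si-ZBTB11 without si-Ctr replicate 1 (0.17), si-Ctr replicate 2 (0.10) or si-ZBTB11 replicate 1 (0.11). Directly, KIF20A was lost without si-ZBTB11 replicate 2 (−0.15), KIF20B without that library (−0.16) or si-SET replicate 1 (−0.12), and KIF11 whichever library was left out (−0.15 to −0.14).

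**Figure D5:**
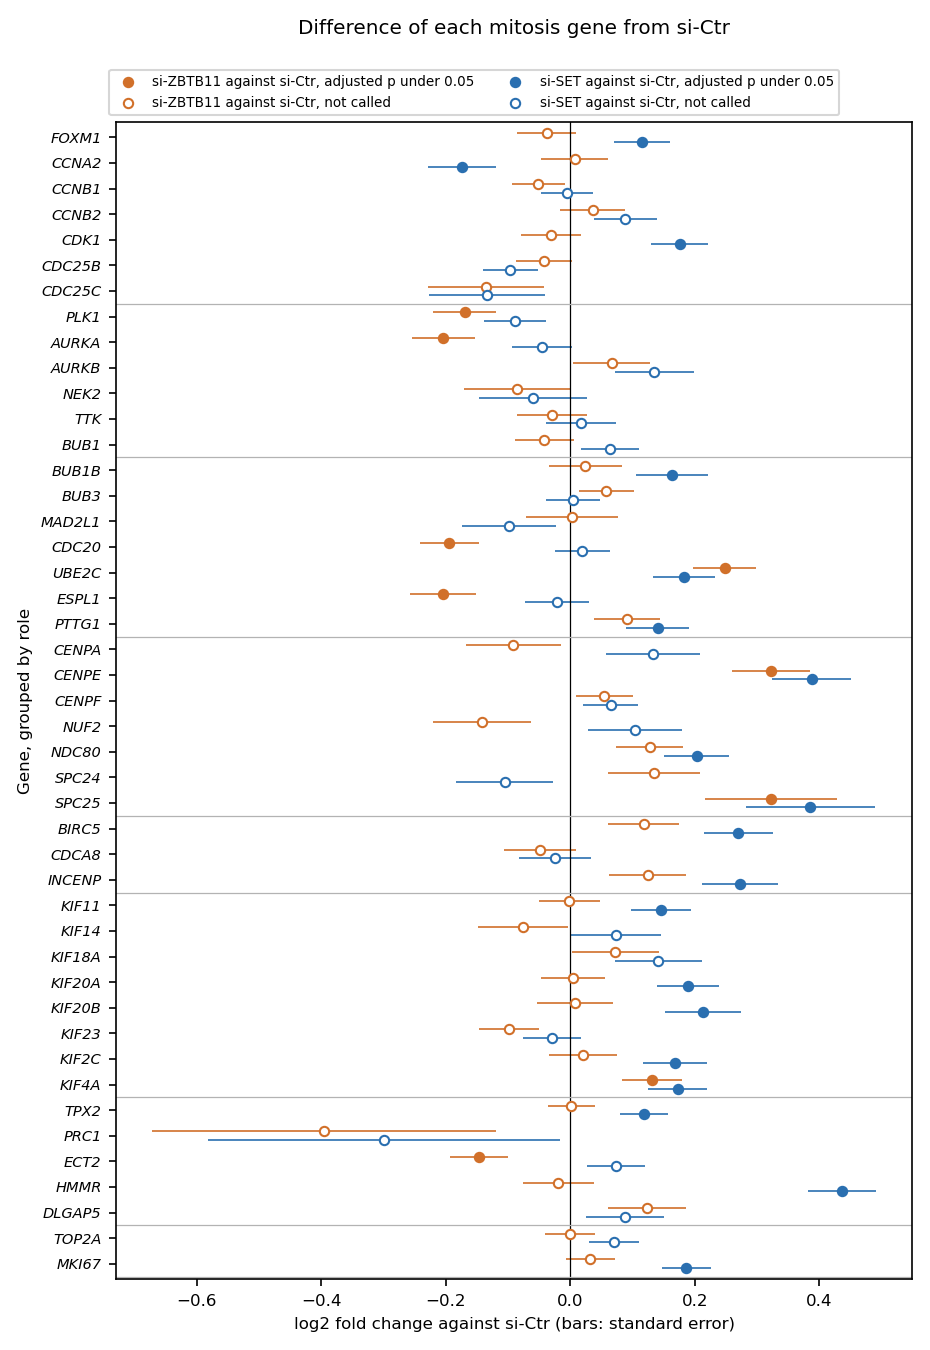
log2 fold change against si-Ctr (horizontal axis, bars show the standard error) of each member (rows, by role) in si-ZBTB11 (orange) and si-SET (blue), with filled points for an adjusted p-value under 0.05. Filled blue points lie right of 0 for 18 members and left of it for CCNA2, and filled orange points lie on both sides, 4 to the right and 5 to the left.

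Of the spindle and cytokinesis proteins, HMMR changed most. HMMR lies on chromosome 5 of hg38 (chr5:163460203-163491941, plus strand) and had 95.1 and 87.3 CPM in si-Ctr, 91.7 and 88.6 CPM in si-ZBTB11, and 129 and 117 CPM in si-SET. The si-SET libraries stood well apart from the other 4, which lay close together. Its mean was 91.2 ± 5.50 CPM (SD, n = 2) in si-Ctr and 123 ± 8.74 CPM (SD, n = 2) in si-SET. The log2 fold change in si-SET was 0.44 (SE 0.05, adjusted p = 9.47e-11), a fold of 1.35, and the direct difference was −0.46 (SE 0.06, adjusted p = 2.85e-07), while si-ZBTB11 against si-Ctr gave −0.02 (adjusted p = 0.866). Both HMMR calls held in all 8 alternatives and with each library left out, at 0.36 to 0.51 and −0.52 to −0.38. Of its exon bases, 2.87% are shared with the antisense gene HMMR-AS1.

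ECT2, the exchange factor that activates RhoA for cytokinesis, had 181 and 171 CPM in si-Ctr, 160.3 and 157 CPM in si-ZBTB11, and 193 and 176 CPM in si-SET. The si-ZBTB11 libraries were the lowest, at −0.15 against si-Ctr (SE 0.05, adjusted p = 0.0141) and −0.22 against si-SET (SE 0.05, adjusted p = 0.00148). TPX2 had 456 and 420.0 CPM in si-Ctr, 446 and 433 CPM in si-ZBTB11, and 484 and 466 CPM in si-SET. It rose in si-SET by 0.12 (SE 0.04, adjusted p = 0.0132) with both libraries above the controls, differed directly by −0.12 (SE 0.04, adjusted p = 0.0398), and was among the members nearest to no change in si-ZBTB11 at 0.00 (adjusted p = 0.984). DLGAP5, a microtubule-binding spindle protein, was not called, at 0.12 and 0.09. PRC1 had 3.54 and 3.11 CPM in si-Ctr, 2.84 and 2.21 CPM in si-ZBTB11, and 3.16 and 2.23 CPM in si-SET, with log2 fold changes of −0.40 and −0.30 that were not called, each with a SE of 0.28. The ECT2 call was lost without si-Ctr replicate 1 (−0.10) or si-ZBTB11 replicate 2 (−0.13), and directly without si-SET replicate 1 (−0.15). TPX2 was not called in si-SET without si-Ctr replicate 2 (0.06) or si-SET replicate 1 (0.09), nor directly without si-SET replicate 1 (−0.09), si-ZBTB11 replicate 1 (−0.14) or si-ZBTB11 replicate 2 (−0.10).

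The proliferation marker MKI67, whose protein coats mitotic chromosomes, rose in si-SET. It had 376 and 352 CPM in si-Ctr, 385 and 361 CPM in si-ZBTB11, and 428 and 400.2 CPM in si-SET. The si-SET libraries were above the other 4, with a log2 fold change of 0.19 (SE 0.04, adjusted p = 9.00e-05), called in all 8 alternatives and with each library left out, from 0.14 to 0.23. Directly, MKI67 differed by −0.16 (SE 0.04, adjusted p = 0.0113), and this call was lost without si-SET replicate 1 (−0.11) or si-ZBTB11 replicate 2 (−0.11). TOP2A, the topoisomerase that untangles chromosomes, was the member nearest to no change in si-ZBTB11, with 348 and 324 CPM in si-Ctr and 348 and 326 CPM in si-ZBTB11. The replicates of TOP2A differed from each other more than the groups did, and its 361 and 345 CPM in si-SET gave a log2 fold change of 0.07 that was not called (adjusted p = 0.193). Across the 3 comparisons, 44 calls were made on members, and 7 of these were called in all 8 alternatives and with every library left out. They were UBE2C in si-ZBTB11, HMMR, BIRC5, INCENP and MKI67 in si-SET, and HMMR and CDK1 between the knockdowns.

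Around the members, 145 further genes of the same processes were counted in 8 lists. In si-ZBTB11, 10 (6.9%) were called higher and 16 (11%) lower, with a median log2 fold change of 0.00, which is near the 9.94% and 10.5% of all genes tested. In si-SET 37 (25.5%) were higher and 10 (6.9%) lower, with a median of 0.08, against 13.1% and 13.9% of all genes. The rise in si-SET was thus not particular to the members. Between the knockdowns, 44 (30.3%) were lower and 8 (5.52%) higher in si-ZBTB11, against 8.58% and 9.61% of all genes. The median there was −0.10, so the direct difference was not particular to the members either. The counts in the lists that follow read against these same shares. The DREAM and MuvB list, which holds the regulators of the CHR, had 2 of 12 higher and 1 lower in si-ZBTB11 and the same numbers in si-SET. The repressor-type factor E2F5 fell in both, by −0.23 and −0.29, while RBL1 (0.25) and E2F4 (0.15) rose in si-ZBTB11, and TFDP1 (0.32) and LIN52 (0.28) rose in si-SET. Of 11 other controls of CDK1, 1 was called in each knockdown, ENSA, an inhibitor of PP2A when phosphorylated, at 0.53 in si-ZBTB11 and 0.30 in si-SET (adjusted p = 9.25e-17 and 5.15e-07). Of 7 CDK inhibitor genes, 3 were lower in si-ZBTB11, and 2 were lower and 2 higher in si-SET. CDKN1A, which encodes p21, fell by −0.41 and −0.34, and CDKN1C by −0.87 and −0.66, while CDKN2D (−0.25) fell in si-ZBTB11 and CDKN2B (0.35) rose in si-SET.

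The anaphase-promoting complex list held 17 genes, of which 3 were higher and 1 lower in si-ZBTB11, and 4 higher and 3 lower in si-SET. ANAPC5, a scaffold subunit, fell by −0.74 in si-ZBTB11 (adjusted p = 7.33e-25), from 3320 and 3131 counts in si-Ctr to 2049 and 1801. In si-SET, CDC23 (−0.48) and ANAPC16 (−0.38) fell, and CDC27 rose by 0.18 in each knockdown. Among 19 cohesin and condensin genes, 1 was higher and 2 lower in si-ZBTB11, and 11 (57.9%) were higher and 0 lower in si-SET, with a median of 0.16. The condensin subunits NCAPD2 (0.22) and NCAPG (0.26) and the cohesin protector SGO2 (0.37) rose in si-SET, and the cohesin ring subunit SMC1A fell by −0.21 in si-ZBTB11. Of 30 other kinetochore genes, 2 were higher and 0 lower in si-ZBTB11, and 6 higher and 0 lower in si-SET. ZW10, which recruits dynein and checkpoint proteins, rose by 0.49 and 0.57, and ZWINT by 0.19 and 0.39. The 33 other spindle and cytokinesis genes had 1 higher and 5 lower in si-ZBTB11, and 3 higher and 3 lower in si-SET. ANLN (−0.22), RACGAP1 (−0.21) and CKAP2 (−0.22) fell in si-ZBTB11, and in si-SET DEPDC1 (0.19) rose while MELK (−0.17) and LMNB1 (−0.14) fell. Of 16 genes of the G1/S transition, listed for reference, 0 were higher and 4 lower in si-ZBTB11, and 8 (50%) were higher and 1 lower in si-SET. Their median in si-SET was 0.17, against 0.09 for the members, of which 40% were higher. Directly, 12 of these 16 (75%) were lower in si-ZBTB11 than in si-SET and 0 higher, with a median of −0.27. Cyclin D1 (CCND1) fell by −0.68 and −0.40, MCM4 (−0.32) and CCNE1 (−0.29) fell in si-ZBTB11, and MCM6 (0.43) and PCNA (0.35) rose in si-SET.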

How the data were processed

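RNA-seq covered 6 libraries, grouped by the sample titles into si-Ctr, si-SET and si-ZBTB11 with 2 replicates in each group. Per the labels and the paper, the authors used an NEBNext Ultra kit, mapped the paired-end reads with HISAT2 2.0.5 (genome build hg38), assigned them to genes with featureCounts 1.5.0-p3 and deposited raw whole-number counts per gene symbol. The annotation, strand setting and treatment of multiply mapped reads are not given in the sources used here. Overlapping genes cannot be told apart in such counts.

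For each pair of groups, genes that passed filterByExpr at its defaults were normalized by TMM and tested two-sided by quasi-likelihood in edgeR (version 4.0.16, R 4.3.3). Benjamini-Hochberg adjustment covered all of these, and calls were made at 0.05. The absolute log2 fold change divided by the square root of F gave the standard error. The log2 CPM of single libraries used a prior count of 2. The steps were tested on simulated counts.

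The members, the lists beside them and the tests were chosen with earlier results of these data known. All 45 members were to be named. Per-library values were to be given for FOXM1, for up to 12 called members per comparison and for the members nearest to no change, and at most 3 genes of each list with the smallest p-values in a knockdown. Values for further members were added. Gene positions came from GENCODE version 44 and promoter windows from RefSeq on GRCh38.p14.

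The alternatives were DESeq2 1.42.0, its size factors in edgeR, library size only, 2 other filters, all 6 libraries in one fit, a replicate block, edgeR's newer quasi-likelihood method, each library left out, and a promoter window from 150 bases before the start. The share of calls among genes at the members' levels was added after the values were seen. The paper's chromatin data were not analysed here.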

Additional observations from a re-analysis of the deposited data

Results flagged for a closer look

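A test between the knockdowns themselves picked out 16 members whose log2 fold change in si-ZBTB11 and in si-SET differed (edgeR quasi-likelihood test, Benjamini-Hochberg adjusted). The difference, si-ZBTB11 minus si-SET, was −0.46 for HMMR, −0.25 for NUF2, −0.23 for CENPA, −0.22 for ECT2, −0.22 for CDC20, −0.21 for CDK1 and −0.21 for KIF20B. It was −0.19 for KIF20A, −0.18 for ESPL1, −0.16 for AURKA, −0.16 for MKI67, −0.15 for FOXM1, −0.15 for KIF11 and −0.12 for TPX2, and it was 0.24 for SPC24 and 0.18 for CCNA2. HMMR and CDK1 were called in all 8 alternatives and with each library left out, and CENPA and KIF11 were not called with any library left out.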

How the results depend on the processing

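With 2 libraries per group, the number of called members moved more than their direction. DESeq2's Wald test called 2 members higher and 3 lower in si-ZBTB11, 9 and 0 in si-SET, and 0 higher and 5 lower between the knockdowns, and 1296, 1802 and 1232 genes in all, against 2771, 3667 and 2465. The cause was not tested. With a library left out, 1 to 9 members were higher and 2 to 6 lower in si-ZBTB11, 6 to 17 higher and 0 to 1 lower in si-SET, and 0 to 2 higher and 3 to 14 lower between the knockdowns. The numbers of all genes then called were 1794 to 2197 in si-ZBTB11, 2411 to 2936 in si-SET and 1799 to 2000 between the knockdowns. The median log2 difference of the members between the knockdowns then ran from −0.15 to −0.040. FOXM1 in si-ZBTB11, at −0.04 with all libraries, ran from −0.13 without si-ZBTB11 replicate 1 to 0.048 without si-ZBTB11 replicate 2. Apart from DESeq2's test and the replicate block, the alternatives with all libraries changed at most 2 calls on members in a comparison. In the promoters, the shorter window left the CHR in 68.4% of members against 8.16% of tested genes, and CCAAT in 84.2% against 34.8%. The ZBTB11 words were left in 23.7% of members, against 28.5% of tested genes.

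Replicate numbers are shared between groups, so each comparison was also fitted with a replicate block. The block called 5 members higher and 5 lower in si-ZBTB11, 18 and 1 in si-SET, and 2 and 17 between the knockdowns, adding NDC80 in the first and BIRC5, INCENP and KIF2C in the last, and it changed no other call on a member. Deviations of same-numbered libraries from their group means correlated across all genes at 0.010, 0.046 and 0.032, and the main fits did not pair libraries by number. Across the 45 members these values were 0.18, 0.42 and 0.29. Replicate 1 also stood above replicate 2 for 40 members in si-Ctr, 34 in si-SET and 42 in si-ZBTB11, a shared shift that a correlation does not register. Whether the numbers pair the libraries for these genes was not tested.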
